A study of Mus musculus with 8 samples.

Results

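The genes described here were 8 antimicrobial peptides and proteins of skin: the β-defensins Defb6 and Defb1, the calgranulins S100a8 and S100a9, the siderophore-binding lipocalin Lcn2, the whey acidic protein family members Slpi and Wfdc18, and the peptidoglycan recognition protein Pglyrp1. They were chosen by symbol, as 8 of the 31053 features in the tables, and each was read as unique molecular identifier (UMI) counts in all 8 libraries. The libraries were single-cell RNA-seq of dorsal skin from female BALB/c mice aged 14 to 16 weeks. Of the 8 libraries, 4 came from skin treated with PBMCsec, the secretome of irradiated human peripheral blood mononuclear cells, and 4 from vehicle-treated skin, called PBMCsec 1 to 4 and vehicle 1 to 4. Biopsies of 4 mm were digested to single cells with a whole skin kit. The methods of the study describe full-thickness excision wounds and 2 treatments with PBMCsec, saline or medium: an ointment put on the wounds from the day of wounding, where biopsies of a treatment group were pooled, and injection into formed scars, with collection directly afterwards or later. The labels of these libraries give no wound, no route, no collection time and no identity of the vehicle, and do not say that each library was 1 mouse, so the p-values below measure the spread between these samples, which may hold all of these.

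Antimicrobial peptides form a chemical barrier at body surfaces. β-defensins are small cationic peptides that epithelia release and that damage microbial membranes. S100a8 and S100a9 pair into calprotectin, which withholds metal ions from microbes, fills the cytosol of neutrophils and can be induced in keratinocytes (KCs) of inflamed skin. Lcn2 binds the siderophores with which bacteria take up iron. Slpi inhibits neutrophil serine proteases and also kills microbes. Pglyrp1 binds bacterial cell walls and is stored in neutrophil granules. The infundibulum is the funnel at the mouth of the hair follicle, where the follicle opens to the skin surface and its microbes.

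Sequencing gave 26231 barcodes, and libraries held 14753926 to 37880651 UMIs in all. The cell filter of the study kept 6150 barcodes, 151 to 1659 per library, with a median depth of 6156 to 9521 UMIs per cell. Cells passed it with 500 to 4000 genes, up to 20000 UMIs and up to 5% of UMIs from mitochondrial genes, and 16900 barcodes lay over the last of these limits. A wider filter (200 to 8000 genes, no UMI limit, up to 10% mitochondrial) kept 15550. Levels are given as CPM, the UMIs of a gene scaled to the same total of UMIs in every set of cells. The 8 genes took no part in the clustering. Clusters were named from marker genes, and each class name below stands for cells like that type (infundibulum-like cells and so on). Library PBMCsec 2 stood apart. It alone held cells with RNA of milk proteins (UMIs of at least 2 of Csn1s1, Csn2, Csn3 and Lalba), 4 kept cells and 12 under the wider filter (a definition made after values were seen). Under the wider filter its 27 cells in the smooth muscle and pericyte class also carried Krt14 RNA in 22 cells and RNA of Oxtr, the oxytocin receptor, in 22 cells, with no Oxtr UMI and Krt14 in up to 45.5% of cells in that class in the other 7 libraries. Results of the kept cells that rest on this library are given with and without it. Up to 2 cell barcodes were shared between any pair of libraries.

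**Figure D1:**
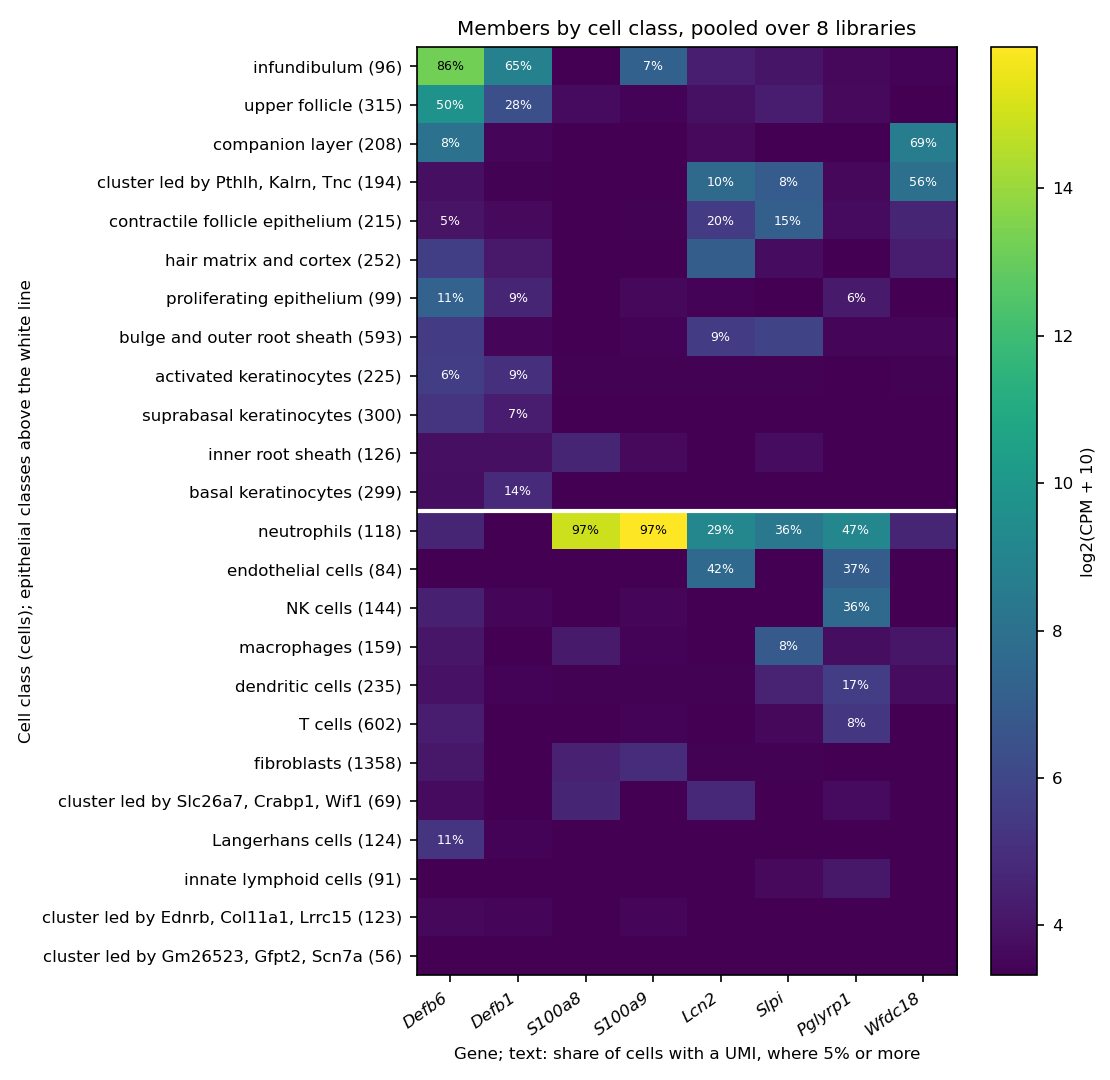
Level of each of the 8 genes (columns) in each class of at least 50 kept cells (rows, number of cells in brackets), pooled over the 8 libraries, as log2(CPM + 10) on the color scale. Printed percentages are shares of cells with a UMI where 5% or more. Defb6 and Defb1 were highest in the infundibulum, S100a8 and S100a9 in neutrophils, and Wfdc18 in the companion layer.

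Defb6 lies on the plus strand of chromosome 8 at chr8:19225478-19228209 in mm10 and Defb1 at chr8:21776599-21795185, with 2548389 bases between them. Defb6 RNA was concentrated at the mouth of the follicle. The 96 infundibulum cells, found in all 8 libraries, carried Krt79 RNA in 91.7% of cells against 8.19% elsewhere and met all 7 markers of the list. They held 72.0% of all Defb6 UMIs of kept cells at a pooled level of 9764 CPM. Of these cells 86.5% had a Defb6 UMI (95% Clopper-Pearson interval 78.0% to 92.6%, which like all intervals here covers counting error only). Cells with the RNA held a median of 121 UMIs, and the highest cell held 671. The upper follicle (315 cells, Sostdc1 RNA in 91.7%) came next, with 879 CPM, 18.6% of the UMIs and a UMI in 50.5% of cells (44.8% to 56.1%), at a median of 3 UMIs. T cells (TCs), which should lack the gene, had a Defb6 UMI in 3.65% of 602 cells at 10.1 CPM, with a median depth of 3286.5 UMIs against 10786.5 in the infundibulum. Fibroblasts (FBs), with a median depth of 9299.5 UMIs, had one in 3.61% of cells. Shares at or below these in other classes are read as background RNA.

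The infundibulum level of Defb6 was 10507, 27709, 9854 and 13780.5 CPM in PBMCsec 1 to 4, and 15084, 7533, 6426 and 5314 CPM in vehicle 1 to 4. PBMCsec 2 held only 2 of these cells, and vehicle 1 and vehicle 2 held 3 each. PBMCsec 2 and vehicle 1 were the highest of their groups, and the groups overlapped. In the upper follicle, Defb6 stood at 682, 1721, 1316 and 708 CPM in PBMCsec 1 to 4 and at 358, 562, 477 and 942 CPM in vehicle 1 to 4, where vehicle 1 had 6 cells. The upper follicle was above the bulge and outer root sheath in 7 of 7 libraries with at least 10 cells of both classes, by 4.49 ± 1.19 on the log2 scale (SD; two-sided exact sign-flip permutation p = 0.0156, the smallest possible here, adjusted p = 0.113 over 18 comparisons of neighbours, of which 0 passed). This order took only classes with at least 10 cells in at least 6 libraries. It left out the companion layer (259 CPM pooled) and proliferating epithelium (147 CPM pooled, a UMI in 11.1% of 99 cells). In this order, bulge and outer root sheath (38.1 ± 41.9 CPM, n = 7) and activated KCs (33.1 ± 39.5 CPM, n = 6) did not differ beyond their spread (exact permutation p = 0.594).

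Few cells outside the mouth of the follicle carried much Defb6. Outside the infundibulum and upper follicle, 13 of 2511 epithelial cells held 20 or more Defb6 UMIs, and these held 75.3% of the UMIs found there. The companion layer had 259 CPM, but 514 of its 543 UMIs came from its 16 cells in PBMCsec 3. The wider filter gave a UMI in 11.6% of 371 companion layer cells, in all 8 libraries, at 493 ± 653 CPM against 555 ± 145 CPM in the upper follicle (n = 8; exact sign-flip permutation p = 0.0859). Langerhans cells, which sit within the epithelium, had a Defb6 UMI in 11.3% of 124 cells, at a median of 1 UMI, and had the highest share of the leukocyte classes of at least 50 cells.

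Defb1 was also highest in the infundibulum, followed by the upper follicle. In the infundibulum it stood at 450 CPM pooled, with a UMI in 64.6% of cells (54.2% to 74.1%) and 52.4% of all Defb1 UMIs. The level was 925, 1051, 323 and 554 CPM in PBMCsec 1 to 4 and 307, 205, 257 and 352 CPM in vehicle 1 to 4. The upper follicle had 73.5 CPM and a UMI in 27.9% of cells. Activated KCs (22.045 CPM, 8.89% of cells, with 29 of the 56 UMIs in 1 cell) and basal KCs (18.3 CPM, 14.0%) followed. These KC classes did not differ from each other in Defb1 beyond their spread (exact permutation p = 0.938, 6 libraries). TCs had 0 Defb1 UMIs in 602 cells, which (3 counts of the total) allows up to 0.498% of cells with a UMI at this depth. Within the infundibulum, 55 of 96 cells had UMIs of both defensins, 28 of Defb6 alone, 7 of Defb1 alone and 6 of neither.

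Under the wider filter the infundibulum held 434 cells, and Defb6 was above the upper follicle in 8 of 8 libraries by 3.14 ± 0.67 on the log2 scale. Defb1 was above it in 8 of 8 libraries by 1.19 ± 0.44. Both had an exact sign-flip permutation p of 0.0078, the smallest that 8 libraries allow, and an adjusted p of 0.0922 over 59 comparisons, of which 0 passed. Across the 24 classes of at least 50 cells, the genes whose log2(CPM + 10) followed Defb6 most closely among 8307 genes were Krt79 (Pearson r = 0.936), Alox12e (0.935) and Aadac (0.922). For Defb1 they were Aadac (0.920), Atp6v1c2 (0.902) and Rgs4 (0.902). All 5 of these genes peaked in the infundibulum class, and Krt79 and Atp6v1c2 were among its markers. The 24 points share libraries and depth, so these values describe likeness only.

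The stretch before the start of a gene holds part of its regulatory sequence. Of the 8 genes, 7 had an upstream window of 250 bases in the RefSeq promoter table (GRCm38.p6, the mm10 assembly). Shown are 3 genes with different sites of expression: Defb6 (infundibulum, chr8:19225228-19225477, plus strand), S100a9 (neutrophils, chr3:90695722-90695971, minus strand) and Wfdc18 (companion layer, chr11:83708754-83709003, plus strand). Each is written 5′ to 3′ on the strand of its gene, and capitals mark matches to a motif of the C/EBP type.
Defb6: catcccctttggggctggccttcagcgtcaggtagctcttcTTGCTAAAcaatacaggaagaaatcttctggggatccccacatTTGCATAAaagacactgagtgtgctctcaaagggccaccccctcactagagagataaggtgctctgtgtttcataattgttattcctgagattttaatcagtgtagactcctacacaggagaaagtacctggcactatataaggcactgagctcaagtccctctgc
S100a9: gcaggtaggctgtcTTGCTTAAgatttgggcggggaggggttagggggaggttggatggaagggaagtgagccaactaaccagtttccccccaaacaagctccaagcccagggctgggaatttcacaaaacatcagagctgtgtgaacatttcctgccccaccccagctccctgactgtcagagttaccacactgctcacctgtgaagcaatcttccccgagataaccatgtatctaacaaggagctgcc
Wfdc18: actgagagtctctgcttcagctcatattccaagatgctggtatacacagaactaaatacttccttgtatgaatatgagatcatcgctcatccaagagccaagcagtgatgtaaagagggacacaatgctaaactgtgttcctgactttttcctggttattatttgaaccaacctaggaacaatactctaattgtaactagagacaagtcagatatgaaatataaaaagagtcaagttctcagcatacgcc
The letters searched were TTGCNNAA for the C/EBP type, GAGGAAG for the ETS type and, for the NF-kB type, ggg and cc around nnttn, on both strands. Defb6 had 2 C/EBP-type matches, TTGCTAAA and TTGCATAA, beginning 209 and 166 bases before its start. S100a9 had 1, TTGCTTAA, beginning 236 bases before its start, and Wfdc18 had no match to any of the motifs. Over the 7 genes, 4 windows held the C/EBP-type letters against 9.56% of all 32851 windows of the same length, 1 the NF-kB-type letters (4.11% of all windows) and 3 the ETS-type letters (10.6%). A match is a string of letters and was not tested as a binding site.

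S100a8 (chr3:90668978-90670035, plus strand) and S100a9 (chr3:90692632-90695721, minus strand) lie 22596 bases apart and were read mainly in neutrophils in these libraries. The 118 neutrophils had a median depth of 1515 UMIs, the neutrophil receptors Csf3r in 86.4% and Cxcr2 in 72.0% of cells, and 7 of 10 markers met, and Ly6g was detected in 5.08%. They held 97.1% of all S100a8 UMIs and 96.8% of all S100a9 UMIs of kept cells. Over all barcodes the shares were lower: those with at least 3 neutrophil markers held 80.1% of S100a8 UMIs and 87.4% of S100a9 UMIs. Each gene had a UMI in 96.6% of neutrophils (91.5% to 99.1%), and 113 of the 118 cells had both. S100a8 stood at 16442, 32977, 31019 and 42359 CPM in PBMCsec 1 to 4, and at 37187, 39123, 42137 and 35776 CPM in vehicle 1 to 4. S100a9 stood at 33941, 62020, 61316 and 91488 CPM in PBMCsec 1 to 4, and at 59319, 54609, 97818 and 124546 CPM in vehicle 1 to 4. PBMCsec 1 was lowest for both genes, the groups overlapped, and the libraries held between 3 (vehicle 4) and 35 (PBMCsec 2) neutrophils. The UMIs of S100a9 to those of S100a8 stood at 1.95 to 1 over all neutrophils and between 1.40 (vehicle 2) and 3.48 (vehicle 4) by library.

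Outside the neutrophil class, calgranulin RNA sat in very few kept cells. Of 6032 such cells, 5 held 20 or more UMIs of S100a8 and S100a9 together, and these had 87.1% of the UMIs found there. Of the 5, 2 were FBs with 182 and 211 UMIs that also held UMIs of 6 and 7 of the 10 neutrophil markers. The other 3 were infundibulum cells that held 90, 30 and 20 S100a9 UMIs, no S100a8 UMI and 1 neutrophil marker each. The cell with 90 S100a9 UMIs had 699 genes and 1 keratin UMI, while the others had 248 and 397 keratin UMIs. The infundibulum as a whole had S100a9 at 140 CPM in 7.29% of cells (2.98% to 14.4%) and S100a8 in 0 of 96 cells. TCs had an S100a9 UMI in 0.332% of cells, at a median depth of 3286.5 UMIs against 10786.5 in the infundibulum. S100a9 UMIs were read in infundibulum cells of 5 of 8 libraries.

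The wider filter, which admits cells of over 20000 UMIs, showed calgranulin RNA in further cells. An infundibulum cell of PBMCsec 2 held 1394 S100a8 UMIs and 1477 S100a9 UMIs beside 2044 keratin UMIs, with 50726 UMIs in all and 1 of the 10 neutrophil markers. Without that cell, the S100a8 level of the infundibulum in PBMCsec 2 went from 2067 to 0 CPM and the S100a9 level from 2554 to 393 CPM. Melanocytes of the wider filter had an S100a8 UMI in 37 of 182 cells (20.3%, interval 14.7% to 26.9%), in 6 of 8 libraries, and S100a9 in 0 of 182, which allows up to 1.65% of cells with a UMI. A hair matrix and cortex cluster of 189 cells had S100a8 in 16.9% of cells, with 71 of its 195 UMIs in 1 cell, and S100a9 in 8 cells. A cluster led by Wif1, Hhip and Inhba had S100a8 in 13 of 154 cells and S100a9 in 1. TCs under the same filter had S100a8 in 0 of 1068 cells and FBs in 0.546% of 2748 cells, with median depths of 3305 and 8739 UMIs against 5636 in melanocytes. The genes that followed S100a8 most closely over the 24 classes were Trem3 (r = 0.988), Rab44 (0.986) and Acod1 (0.984), and for S100a9 Il1a (0.986), Il1f9 (0.956) and Nfe2 (0.951), all highest in neutrophils.

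Lcn2 (chr2:32384633-32388252, minus strand) was read in neutrophils and in endothelial cells. Neutrophils had 560 CPM pooled and a UMI in 28.8% of cells (20.8% to 37.9%), from 106 CPM in PBMCsec 1 to 2257 CPM in vehicle 3. Endothelial cells (84 cells, Pecam1 in 91.7%) had 189 CPM and a UMI in 41.7% of cells (31.0% to 52.9%). By library the endothelial level was 155, 229, 72.0 and 258 CPM in PBMCsec 1 to 4 and 90.9, 216, 209 and 247 CPM in vehicle 1 to 4. Every library held the RNA in this class, and the groups overlapped. TCs had Lcn2 in 0 of 602 cells. Endothelial cells were above the bulge and outer root sheath in 6 of 6 libraries, by 3.30 ± 0.84 on the log2 scale (exact sign-flip permutation p = 0.0313, the smallest possible, adjusted p = 0.113).

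The endothelial class consisted of 2 clusters, and Lcn2 and Pglyrp1 were found in that with more RNA of Prox1, the transcription factor of lymphatic endothelium (a split made after the values were seen). In this Prox1-high cluster, 34 of 50 cells had an Lcn2 UMI at 289 CPM. The share was 50% to 100% in each of the 8 libraries, from only 2 (vehicle 1) to 11 (vehicle 3) cells a library. In the other cluster 1 of 34 cells had one, at 32.5 CPM. Pglyrp1 was read in 28 of 50 Prox1-high cells at 179 CPM and in 3 of 34 others at 27.8 CPM. The wider filter gave 57 of 89 cells against 1 of 89 for Lcn2 and 47 of 89 against 12 of 89 for Pglyrp1. Both genes were read in 20 of the 84 endothelial cells and in 22 of the 118 neutrophils.

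In epithelium, most Lcn2 came from PBMCsec 2. All 5 epithelial cells with 20 or more Lcn2 UMIs belonged to it, and these had 67.1% of the epithelial Lcn2 UMIs. The 4 kept cells with milk protein RNA had Lcn2 at 5137 CPM, with Krt18 at 3349 CPM and Krt8 at 1411 CPM and no UMI of Krt14 or Krt17. All other kept cells had Lcn2 at 16.1 CPM. A further cell of PBMCsec 2 held 265 Lcn2 UMIs, 656 Krt8 and Krt18 UMIs and 134 UMIs of Csn3, a casein gene. The epithelial level of Lcn2 in PBMCsec 2 was 1104 CPM with and 709 CPM without the cells with milk protein RNA. The 709 CPM still includes that further cell, which had too few milk protein genes to meet the definition. Of the 658 epithelial Lcn2 UMIs of PBMCsec 2, 273 lay in the cells with milk protein RNA and 265 in that further cell. Under the wider filter all 278 Lcn2 UMIs and all 448 Slpi UMIs of the smooth muscle and pericyte class, 787 and 1269 CPM, came from PBMCsec 2. Cells of this class in that library carried the Krt14 and Oxtr RNA described above, and overlap of these genes cell by cell was not counted. The sebaceous gland, formed by 115 cells of the wider filter, had Lcn2 in 27.0% of cells (19.1% to 36.0%), at 164, 245, 25.9 and 111 CPM in PBMCsec 1 to 4 and at 57.1, 9.64, 10.1 and 20.2 CPM in vehicle 1 to 4, from 1 to 37 cells a library, too few for a test. Over the 24 classes the closest gene to Lcn2 was Lrg1 (r = 0.787), which peaked in endothelial cells, followed by B4galt3 (0.746) and Ddx6 (0.736).

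**Figure D2:**
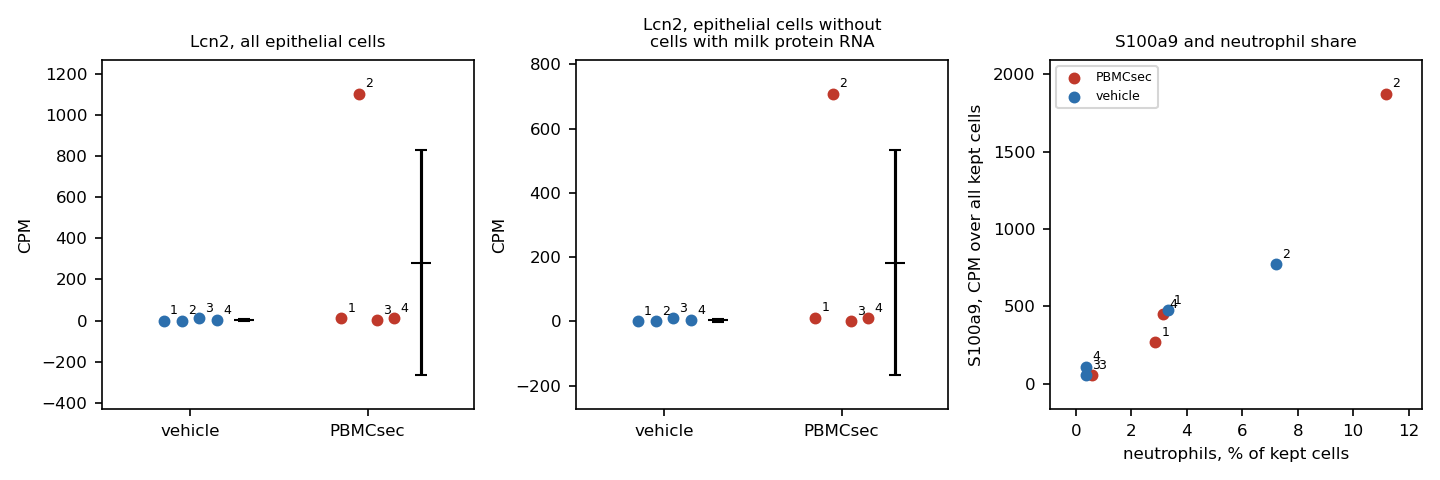
Libraries behind the totals of Lcn2 and S100a9. Left and middle: Lcn2 in epithelial cells, in CPM, for each library (points, numbered 1 to 4) by treatment, with and without the cells that hold milk protein RNA, with the mean and SD of 4 libraries as the bar. PBMCsec 2 stands at 1104 CPM in the left and 709 CPM in the middle plot. The middle plot still includes a cell of PBMCsec 2 with 265 Lcn2 UMIs and 134 Csn3 UMIs. Right: S100a9 over all kept cells, in CPM, against the share of neutrophils among kept cells, in percent, for the 8 libraries. The library with the highest neutrophil share, 11.2%, also has the highest S100a9 level.

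Slpi (chr2:164354070-164389095, minus strand) was spread thinly over neutrophils and several follicle classes. Neutrophils had 315 CPM and a UMI in 35.6% of cells (27.0% to 44.9%), from 191 CPM in vehicle 4 to 360 CPM in PBMCsec 1. The contractile follicle epithelium, which carries contractile genes beside basal keratins, had 129 CPM and a UMI in 14.9% of 215 cells (10.4% to 20.4%). There the level was 107, 0, 34.7 and 268 CPM in PBMCsec 1 to 4 and 0, 0, 124 and 11.04 CPM in vehicle 1 to 4. The libraries at 0 held few cells of this class, so a 0 there says little about the level. The class made up 0.639% of 313 kept cells in PBMCsec 2, 1.32% of 151 in vehicle 1 and 1.44% of 208 in vehicle 2. A cluster led by Pthlh, Kalrn and Tnc had 117 CPM, with 125 of its 227 UMIs in 1 cell. In macrophages, 86 of 109 UMIs lay in 1 cell, and in the bulge and outer root sheath 224 of 259 UMIs lay in PBMCsec 2. TCs had a Slpi UMI in 0.664% of cells, so the shares in neutrophils and contractile follicle epithelium lay above background. The closest genes over the 24 classes were Pla2g7 (r = 0.895), Apobec1 (0.878) and Rbm47 (0.802).

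Wfdc18 (chr11:83709015-83711348, plus strand) was read mainly in 2 epithelial classes. The companion layer (208 cells, Krt6a in 96.6% but Krt75 in only 5.29% of cells) had 375 CPM, a UMI in 68.8% of cells (62.0% to 75.0%) and 59.4% of all Wfdc18 UMIs. The cluster led by Pthlh, Kalrn and Tnc had 238 CPM, a UMI in 55.7% of 194 cells and 34.8% of the UMIs. TCs had 0 in 602 cells. In the companion layer the level was 586, 378, 382 and 283 CPM in PBMCsec 1 to 4 and 0, 265, 450 and 303 CPM in vehicle 1 to 4, where vehicle 1 had 2 cells. The groups overlapped, and apart from vehicle 1 all libraries lay between 265 and 586 CPM. The closest genes were Plekhb1 (r = 0.948), S100b (0.932) and Rnf223 (0.905).

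Pglyrp1 (chr7:18871331-18890459, plus strand) was a gene of leukocytes and endothelium. Neutrophils had 565 CPM and a UMI in 47.5% of cells (38.2% to 56.9%), and natural killer (NK) cells had 187 CPM and a UMI in 36.1% of 144 cells (28.3% to 44.5%). Endothelial cells had 120 CPM (36.9% of cells), dendritic cells (DCs) 39.4 CPM (17.4%) and TCs 29.97 CPM (8.31%). FBs, as background, had a UMI in 0.221% of cells. In NK cells the level was 302, 227, 90.2 and 235 CPM in PBMCsec 1 to 4 and 118, 143, 81.9 and 270 CPM in vehicle 1 to 4. PBMCsec 3 and vehicle 3 were lowest, and the groups overlapped. TCs were above macrophages in 6 of 6 libraries (exact permutation p = 0.0313, adjusted p = 0.113), and DCs and TCs did not differ beyond their spread (exact permutation p = 0.859). Sh2d3c (r = 0.980), Dennd3 (0.920) and Upp1 (0.871) were closest over the classes.

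The design compared PBMCsec with vehicle. In sums over a library, fewer cells of a type and less RNA per cell cannot be told apart. Over all kept cells, all 8 genes were tested in edgeR's quasi-likelihood fit and 0 were called at an adjusted p under 0.05, beside 0% of the 13182 genes tested (335 had an unadjusted p under 0.05, and DESeq2 called 8). Of the 8 genes, 4 had an unadjusted edgeR p under 0.05, all with higher levels in PBMCsec: Defb6, Defb1, Slpi and Lcn2.

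Defb6 over all kept cells stood at 334, 495, 394 and 380.0 CPM in PBMCsec 1 to 4 and at 375, 199, 127 and 181 CPM in vehicle 1 to 4. Vehicle 1 lay within the PBMCsec range and the other vehicle libraries below it. The means were 401 ± 67.7 and 220 ± 107 CPM (SD, n = 4 each), with a log2 fold change of 0.94 (SE 0.30, edgeR p = 0.0131, adjusted p = 1; two-sided exact permutation p = 0.0571, with 0.0286 the smallest possible). Under the wider filter the log2 fold change was 0.39 (edgeR p = 0.423; exact permutation p = 0.486). Defb1 stood at 35.4, 20.01, 16.4 and 20.3 CPM in PBMCsec 1 to 4 and at 10.9, 9.88, 11.4 and 18.0 CPM in vehicle 1 to 4. Only vehicle 4 reached the PBMCsec range, and the log2 fold change was 0.89 (SE 0.32, edgeR p = 0.0197, adjusted p = 1; exact permutation p = 0.0571), and 0.56 under the wider filter (exact permutation p = 0.143). The infundibulum made up 1.43, 0.639, 1.78 and 1.64% of kept cells in PBMCsec 1 to 4 and 1.99, 1.44, 1.45 and 1.72% in vehicle 1 to 4, a difference that was not detectable (exact permutation p = 0.4). Its share under the wider filter was 2.98 ± 0.40% in PBMCsec and 2.73 ± 0.55% in vehicle (exact permutation p = 0.514).

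Lcn2 over all kept cells stood at 9.51, 317, 0.981 and 16.0 CPM in PBMCsec 1 to 4 and at 4.52, 14.0, 9.63 and 5.06 CPM in vehicle 1 to 4. Its log2 fold change of 3.39 (SE 1.47, edgeR p = 0.0461, adjusted p = 1; exact permutation p = 0.543) was 0.14 without PBMCsec 2, so it rested on that library. Slpi stood at 25.4, 120, 2.62 and 57.0 CPM in PBMCsec 1 to 4 and at 14.5, 4.07, 8.76 and 3.37 CPM in vehicle 1 to 4. PBMCsec 3 was the lowest library of all, and the other PBMCsec libraries were above every vehicle library. The log2 fold change of Slpi was 2.89 (SE 0.97, edgeR p = 0.0153, adjusted p = 1; exact permutation p = 0.171), 2.07 without PBMCsec 2 and 1.20 under the wider filter. Under that filter vehicle 4 stood at 58.0 CPM, and 1 of its cells held 1247 of its 1466 Slpi UMIs. That cell also held 15025 UMIs of Igkc, an immunoglobulin gene, and a fit without it was not run.

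Within each group, the order of libraries for the calgranulins was that of their neutrophil shares. S100a8 over all kept cells stood at 130, 996, 28.4 and 208 CPM in PBMCsec 1 to 4 and at 300, 556, 22.7 and 38.9 CPM in vehicle 1 to 4. S100a9 stood at 269, 1873, 55.7 and 452 CPM in PBMCsec 1 to 4 and at 478, 775, 55.5 and 112 CPM in vehicle 1 to 4. Neutrophils made up 2.85, 11.2, 0.594 and 3.16% of kept cells in PBMCsec 1 to 4 and 3.31, 7.21, 0.362 and 0.369% in vehicle 1 to 4. The libraries numbered 2 were highest in each group for both genes and for the share. The summed level of the 10 neutrophil markers was 116 to 646 CPM in PBMCsec and 96.7 to 576 CPM in vehicle, also highest in the libraries numbered 2. The log2 fold changes were 0.64 (SE 1.16) for S100a8 and 0.96 (SE 1.05) for S100a9, and both turned negative without PBMCsec 2 (-0.82 and -0.37). The neutrophil share was higher by 1.63 percentage points in PBMCsec (exact permutation p = 0.6) and changed sign without PBMCsec 2 (-0.61 points). Of 249 barcodes with at least 3 of the 10 neutrophil markers, 60 (24.1%) had fewer than 500 genes and were lost to the filter. The filter kept 147 (59.0%) of the 249, against 6150 of all 26231 barcodes, so kept cells were enriched in neutrophils. The cell filter thus bears on every neutrophil value. Pglyrp1 (18.4, 31.1, 5.81 and 9.94 CPM in PBMCsec 1 to 4; 40.7, 33.1, 3.63 and 5.34 CPM in vehicle 1 to 4) had a log2 fold change of -0.19 (SE 0.82). Wfdc18 (11.01, 16.0, 8.91 and 34.6 CPM; 0, 12.2, 46.1 and 37.9 CPM in the same order) had one of -0.49 (SE 0.81).

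**Figure D3:**
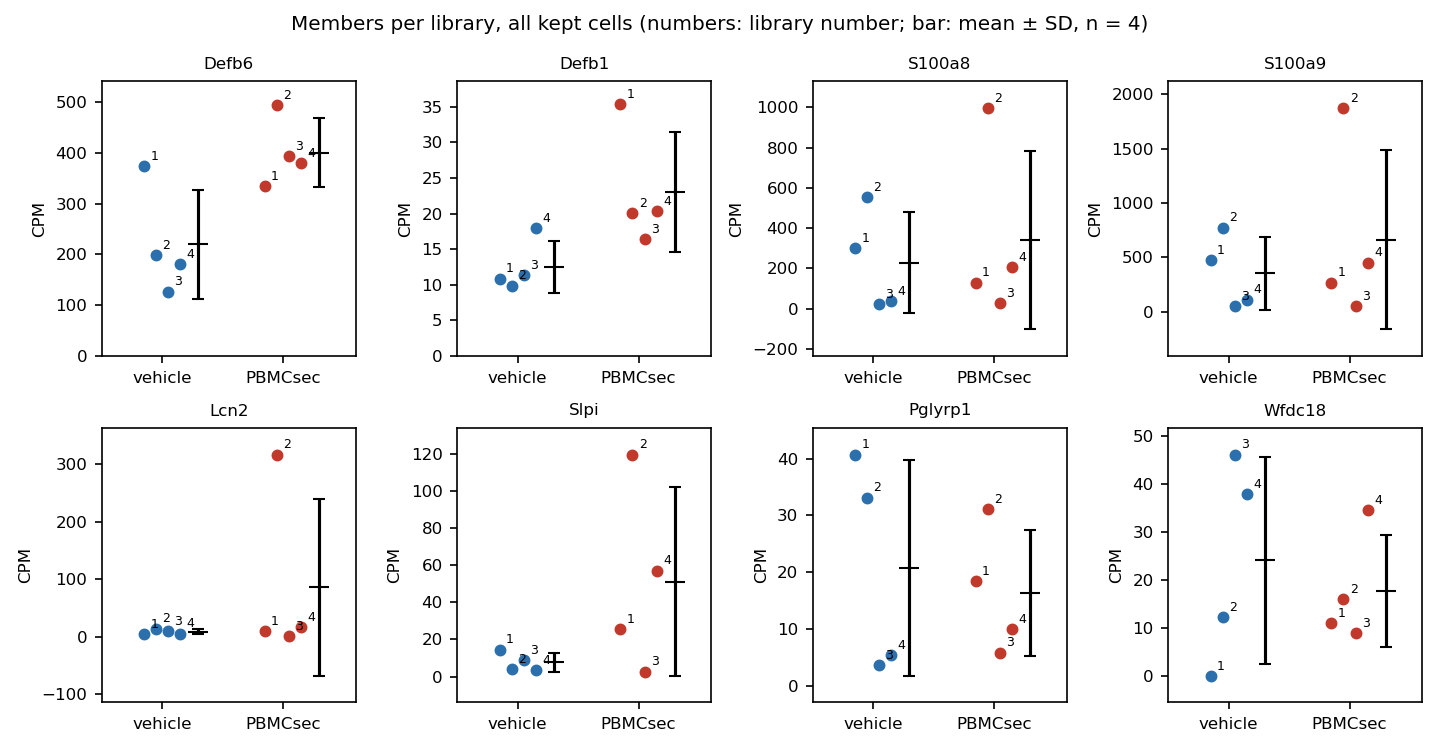
Level of the 8 genes over all kept cells, in CPM, in each library (points, numbered 1 to 4) by treatment, with the mean and SD of the 4 libraries of a group as the bar. Defb6 and Defb1 had higher means in PBMCsec with overlapping groups, and the means of Lcn2, S100a8 and S100a9 were raised by PBMCsec 2.

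Among epithelial cells, 5 of the genes could be tested, and 0 were called (0% of 10985 genes called; 175 with an unadjusted p under 0.05; DESeq2 called 1). Defb1 stood at 78.1, 75.5, 34.4 and 32.7 CPM in PBMCsec 1 to 4 and at 45.1, 18.0, 16.3 and 26.4 CPM in vehicle 1 to 4, where vehicle 1 had 27 epithelial cells. The groups overlapped only through vehicle 1, with a log2 fold change of 1.29 (SE 0.41, edgeR p = 0.0087, adjusted p = 1; exact permutation p = 0.114), and 0.63 under the wider filter. Slpi stood at 13.7, 391, 3.46 and 86.4 CPM in PBMCsec 1 to 4 and at 0, 0, 11.9 and 4.74 CPM in vehicle 1 to 4. Its log2 fold change was 4.20 (SE 1.31, edgeR p = 0.0085, adjusted p = 1; exact permutation p = 0.114), 2.45 without PBMCsec 2 and 1.12 under the wider filter. The wider-filter value again includes the vehicle 4 cell with 1247 Slpi UMIs. Defb6 (735, 1854, 816 and 608 CPM in PBMCsec 1 to 4; 1685, 359, 183 and 264 CPM in vehicle 1 to 4) had a log2 fold change of 0.82 (SE 0.64), 0.34 without PBMCsec 2, 1.95 without vehicle 1, 0.50 without vehicle 3 and 0.33 under the wider filter. Epithelial Lcn2 had 0.50 without PBMCsec 2 and 5.67 with it. Wfdc18 had -0.17 (SE 0.55).

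Within classes, the kept cells allowed 8 further tests of these genes in 5 classes, and 0 were called. In the upper follicle (0% of 5400 genes called), Defb6 had means of 1107 ± 503 CPM (PBMCsec, n = 4) and 660 ± 247 CPM (vehicle, n = 3), a log2 fold change of 0.73 (SE 0.33, edgeR p = 0.0409, adjusted p = 1; exact permutation p = 0.2), and 0.10 under the wider filter. Defb1 there had 0.34 (SE 0.39). In endothelial cells (0.0673% of 1486 genes called), Pglyrp1 had 104 ± 8.82 CPM in PBMCsec and 166 ± 33.3 CPM in vehicle (n = 3 each). These libraries did not overlap, but the log2 fold change was -0.65 (SE 0.39, edgeR p = 0.120, adjusted p = 0.936; exact permutation p = 0.1, the smallest possible), and -0.29 under the wider filter. Lcn2 there had -0.40 (SE 0.43). In the bulge and outer root sheath (0% of 8365 genes called), the log2 fold change of Lcn2 was 3.56 (SE 1.61), with PBMCsec 2 at 770 CPM and every other library at 25.9 CPM or less, and -0.18 without PBMCsec 2. That of Defb6 was -0.96 (SE 0.77) and 1.44 without vehicle 4. In basal KCs (0% of 5662 genes called) Defb1 had 0.41 (SE 0.48). In NK cells (0.217% of 923 genes called) Pglyrp1 had 0.39 (SE 0.52). Shares of cells with a UMI, after thinning each cell to 1000 UMIs, gave 19 tests, of which 0 were called and 0 had an unadjusted permutation p under 0.05. Thinning left out 73 PBMCsec and 48 vehicle cells of lower depth.

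Under the wider filter 52 tests of these genes could be made and 0 were called, with 13 at an unadjusted p under 0.05, of which 12 had the higher level in PBMCsec. The tests cover sets that share cells, such as epithelial cells and their classes. The share of all genes at such p-values in these fits, and its direction, are not given here. The count is therefore not read as an effect of treatment on these genes. Of the 13, those of Lcn2, S100a8 and S100a9 had their highest level in PBMCsec 2. In epithelial cells the log2 fold changes were 4.44 (SE 1.51) for S100a8 and 5.06 (SE 1.39) for S100a9. Without its highest cell, PBMCsec 2 went from 165 to 13.7 CPM and from 236 to 76.0 CPM. S100a9 in the infundibulum had 4.42 (SE 1.45), and 0.70 to 5.95 in its alternatives. The wider filter brought enough cells to test the infundibulum and the neutrophils themselves. Over all genes, edgeR called 0% in these classes except 0.0286% of 7005 in proliferating cells, where Slpi had a log2 fold change of 2.09 (SE 0.60, adjusted p = 0.549), and 0.0434% of 2305 in innate lymphoid cells, where none of the 8 could be tested. In the infundibulum (0% of 6516 genes called), Defb1 stood at 240, 271, 174 and 200 CPM in PBMCsec 1 to 4 and at 114, 158, 146 and 160 CPM in vehicle 1 to 4. All PBMCsec libraries lay above all vehicle libraries, and the log2 fold change was 0.67 (SE 0.21, edgeR p = 0.0080, adjusted p = 0.775; exact permutation p = 0.0286, the smallest possible). Leaving out any 1 library gave 0.51 to 0.80. Defb6 in the same cells stood at 3993, 9342, 4584 and 5091 CPM in PBMCsec 1 to 4 and at 8067, 2724, 3925 and 3897 CPM in vehicle 1 to 4. PBMCsec 2 and vehicle 1 were the highest, and the log2 fold change of Defb6 was 0.39 (SE 0.36, edgeR p = 0.298; exact permutation p = 0.371) and -0.02 without PBMCsec 2. In neutrophils (0% of 495 genes called, 7 libraries), S100a8 had a log2 fold change of -0.16 (SE 0.31), S100a9 -0.16 (SE 0.34), Lcn2 -0.07 (SE 0.80) and Pglyrp1 0.08 (SE 0.46), so a difference per neutrophil was not detectable.

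Slpi had the lowest unadjusted p-values of the 8 genes under the wider filter. In the contractile follicle epithelium (0% of 9069 genes called) it stood at 441, 439, 64.9 and 335 CPM in PBMCsec 1 to 4 and at 8.81, 43.8, 74.6 and 81.3 CPM in vehicle 1 to 4. PBMCsec 3 lay within the vehicle range and the other PBMCsec libraries above it. The log2 fold change was 2.53 (SE 0.53, edgeR p = 0.00034, adjusted p = 0.889; DESeq2 adjusted p = 0.588; exact permutation p = 0.0857). In the cluster led by Pthlh, Wfdc18 and Kalrn (0% of 6551 genes called), Slpi stood at 199, 0, 72.3 and 300 CPM in PBMCsec 1 to 4 and at 26.8, 1.84, 9.61 and 1.08 CPM in vehicle 1 to 4. The log2 fold change there was 4.44 (SE 0.92, edgeR adjusted p = 0.584), and without PBMCsec 2, which had 17 of these cells and no Slpi UMI, the adjusted p was 0.0084. Slpi was carried by few cells with much RNA: under the wider filter, cells of the epithelial classes with 20 or more Slpi UMIs numbered 6, 7, 2 and 21 in PBMCsec 1 to 4 and 0, 1, 3 and 2 in vehicle 1 to 4. These were out of 880, 416, 1540 and 1500 cells in PBMCsec 1 to 4 and 265, 477, 2184 and 1435 in vehicle 1 to 4. Of the 2 in vehicle 4, 1 was the cell with 1247 Slpi UMIs and much Igkc RNA, which held 0 keratin UMIs. In the bulge and outer root sheath, Defb6 stood at 10.2, 9.95, 25.02 and 19.9 CPM in PBMCsec 1 to 4 and 45.4, 167, 15.02 and 141 CPM in vehicle 1 to 4 (log2 fold change -2.45, SE 0.63, edgeR adjusted p = 0.933; exact permutation p = 0.0857). Single cells weighed here too: the cells of this class with 20 or more Defb6 UMIs lay in vehicle 2 (103 and 76 UMIs), vehicle 3 (34) and vehicle 4 (107, 90 and 49). Wfdc18 in its own classes did not differ beyond the spread, with log2 fold changes of -0.04 (SE 0.25) in the companion layer and 0.06 (SE 0.39) in that cluster.

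**Figure D4:**
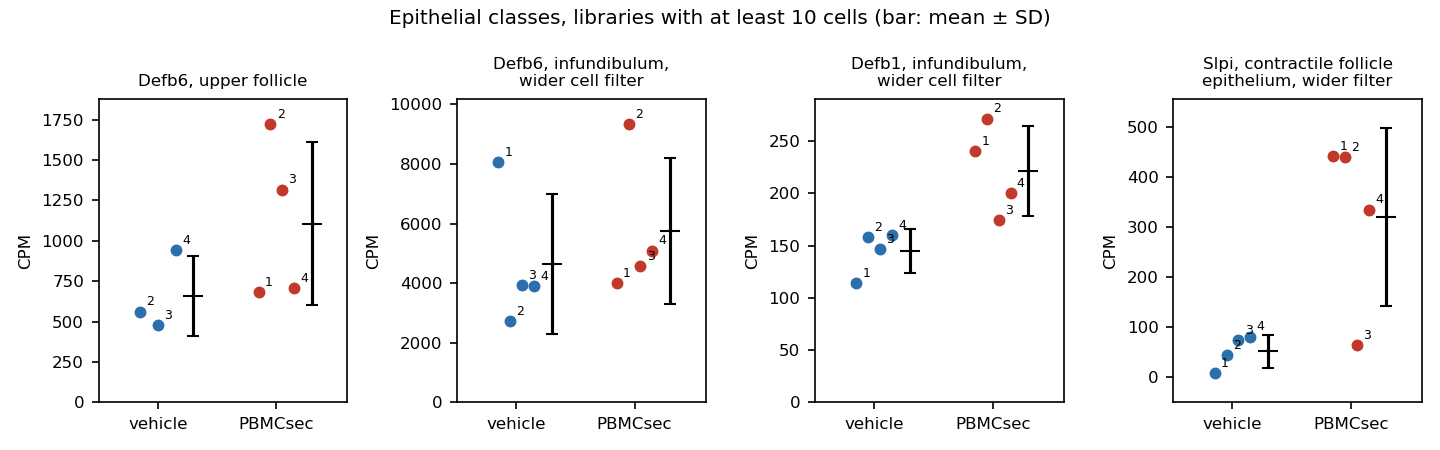
Level of Defb6 in the upper follicle (kept cells) and, under the wider filter, of Defb6 and Defb1 in the infundibulum and of Slpi in the contractile follicle epithelium, in CPM, in each library with at least 10 cells of the class (points, numbered by library) by treatment, with mean and SD as the bar. The groups overlap for Defb6 and, through PBMCsec 3, for Slpi, and do not overlap for Defb1.

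Related genes gave the background to these values. Of a list of 55 antimicrobial, IL-17 and IL-36 pathway genes and receptors, 24 could be tested over all kept cells and 0 were called (1 by DESeq2). Of the 24, 15 had a higher level in PBMCsec, with a median log2 fold change of 0.16 beside -0.02 over all genes tested. In epithelial cells 13 were tested, 0 were called and 6 had a higher level in PBMCsec. The 5 list genes of highest mean level were Il1b, a cytokine that peaked in neutrophils at 21749 CPM, Lyz2, a lysozyme that peaked in macrophages at 15942 CPM, S100a14, which peaked in the companion layer at 1825 CPM, Rnase4, a ribonuclease that peaked in FBs at 1584 CPM, and Bsg, a receptor of S100a9, at 598 CPM in the contractile follicle epithelium. Their log2 fold changes over all kept cells were 0.93, 0.49, -0.31, 0.30 and 0.02 in that order, and none passed the test.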

How the data were processed

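Each of the 8 libraries was a 10x 3′ (v3.1) single-cell library. Per the file headers and the submitters' processing notes, the authors aligned reads to mm10 with Cell Ranger 3.0.2 and deposited UMI counts per gene and barcode, not normalised. The cell filter and the removal of 3 genes followed the methods of the study. Cells were clustered with Seurat 5.3.0 without the 8 genes, and clusters were named from fixed markers, at least 3 of which had to be met. The analysis used scanpy 1.11.5, R 4.3.3, edgeR 4.0.16 and DESeq2 1.42.0. Scrublet called 17 cells (0.276%), so doublets were not reliably marked, and the 278 cells of highest score were left out in an alternative.

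Within each class the counts of a library were added up, and classes with 10 cells in at least 3 libraries of each group were fitted with edgeR's quasi-likelihood test (TMM, filterByExpr, Benjamini-Hochberg adjustment over all genes, two-sided). Single values had exact permutation tests over all labellings of the libraries used (70 for 4 against 4, fewer where a class had fewer libraries), and neighbouring classes exact sign-flip tests. Levels entered correlations as log2(CPM + 10). On simulated data with 200 changed genes, 4-fold changes were recovered for 82% of genes over all kept cells (13182 genes) and 83% in epithelium (10985 genes), and 2-fold changes for 16% and 31%. False calls numbered 5 and 4. These shares do not carry over to genes of larger spread. Over all kept cells, Slpi (log2 fold change 2.89, SE 0.97) and Lcn2 (3.39, SE 1.47) had estimates above 4-fold and were not called. The kept cells held between 16.5% (Slpi) and 59.8% (S100a9) of a gene's UMIs in all barcodes.

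The rule for named genes took each of the 8 in every class, the 5 list genes of highest mean level and the 3 genes most correlated with each of the 8. The 8 genes and the lists were chosen with earlier results of these data known. Same-numbered libraries were checked for pairing: their deviations over all kept cells correlated in each of 4 pairs (r from 0.288 to 0.571) but not in each pair in epithelium (-0.01 to 0.47), and the labels do not say what a number stands for. Over all kept cells, pairs of unlike number also correlated within numbers 1 and 2 (r = 0.189 and 0.434) and within 3 and 4 (0.315 and 0.505). Pairs across these sets had r from -0.554 to -0.225. The deviations thus went with these sets of numbers and not with the same number alone. Gene positions came from GENCODE vM21 and upstream sequences from RefSeq (GRCm38.p6). Alternatives were other tools, filters, clusterings, cell sets and libraries left out.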

Additional observations from a re-analysis of the deposited data

Results flagged for a closer look

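A library was flagged where its gap to the nearest library of its group was over Dixon's 95% critical value for 4 samples. Of 32 groups of 4 libraries, 8 were flagged, where chance gives about 1 in 20. No cause was tested for any of them.

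Lcn2 in all kept cells of PBMCsec 2 stood at 317 CPM against 16.0 CPM in the next PBMCsec library, and Lcn2 in its epithelial cells at 1104 CPM against 12.2 CPM. The cells of this library with milk protein RNA held 273 of its 713 Lcn2 UMIs, and without them the level over all kept cells was 200.4 CPM. That level still includes a cell with 265 Lcn2 UMIs and 134 Csn3 UMIs, which fell short of the definition. Defb6 in epithelial cells was 1854 CPM in PBMCsec 2, which had 66 epithelial cells, against 816 CPM in the next library, and 1685 CPM in vehicle 1, which had 27 epithelial cells, against 359 CPM.

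The other flags rested on few UMIs. S100a8 in epithelial cells was 2.10 CPM in PBMCsec 4, from 9 UMIs in 1 cell, and 2.89 CPM in vehicle 4, from 14 UMIs in 3 cells. S100a9 in epithelial cells was 22.6 CPM in PBMCsec 4, from 97 UMIs, of which 90 lay in the infundibulum cell described above. Pglyrp1 was 0 CPM in the 27 epithelial cells of vehicle 1.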

How the results depend on the processing

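Of 478 alternative values of the 32 log2 fold changes reported for the 8 genes, 437 kept the direction and the side of the threshold, 2 gained a call, and 39, over 17 results, changed sign, none of them called. The cause was not tested. The cell filter limits these data, since it kept a minority of the UMIs of 6 of the 8 genes. It left 96 infundibulum cells and 118 neutrophils. Barcodes with at least 3 neutrophil markers passed it more often than barcodes in general. Several alternatives were chosen after seeing the data: the fits of classes testable only under the wider filter, and the fits without cells with milk protein RNA or without neutrophils.

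Over all kept cells edgeR called 0 genes and DESeq2 8, with 1 of the antimicrobial list. Summed over classes, edgeR called 3 genes, against 17 with DESeq2, 256 with no filter on low counts, 103 from libraries 1 and 2 alone, 0 from libraries 3 and 4 alone, 0 under the wider filter, 1 at resolution 0.5, 0 with a minimum of 20 cells, and 0 to 42 with a library left out (42 without PBMCsec 4). List genes called in classes numbered 0, against 4 with no filter on low counts and 0 to 1 with a library left out. Classes testable only under the wider filter had 3 calls, against 39 with DESeq2 and 3 to 51 with a library left out (12 without PBMCsec 2, 23 without PBMCsec 3, 51 without PBMCsec 4, 12 without vehicle 1, 5 without vehicle 2 and 5 without vehicle 4).

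With the replicate number as a block, edgeR called 0 genes over all kept cells and 53 in classes, none of them among the 8 genes. The block fit gave log2 fold changes of 0.13 for Pglyrp1 over all kept cells and -0.055 for Defb1 in the upper follicle, both of the opposite sign to the fit without it, 1.03 for Defb6 and 0.81 for Defb1 over all kept cells, and 1.29 for Lcn2 and 2.04 for Slpi.

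Of the 739 fits of the 8 genes over all settings, 4 gave a call, and 0 of these were the reported fits. They were Lcn2 (log2 fold change 9.69) and Slpi (10.65) in the bulge from libraries 1 and 2 alone, Slpi in the upper follicle with no filter on low counts (adjusted p = 0.0454 in edgeR), and Slpi without PBMCsec 2 in the cluster led by Pthlh, Wfdc18 and Kalrn under the wider filter. The bulge fits held 3 libraries, since vehicle 1 had no kept cells of that class. Vehicle 2 was their only vehicle library, so that group had no replicate.

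Leaving out 1 library moved the log2 fold change over all kept cells from -0.82 to 1.64 for S100a8, from -0.37 to 1.73 for S100a9 and from -0.66 to 0.37 for Pglyrp1, that of Defb6 in epithelium from 0.34 to 1.95 and of Wfdc18 there from -0.52 to 0.16, and in the bulge that of Lcn2 from -0.18 (without PBMCsec 2) to 4.81 and of Defb6 from -1.64 to 1.44 (without vehicle 4). Under the wider filter it ran from -0.019 (without PBMCsec 2) to 0.79 for Defb6 in the infundibulum, and in neutrophils from -0.42 to 0.087 for S100a9 (0.019 without PBMCsec 1, 0.087 without vehicle 4), from -0.88 to 0.84 for Lcn2 (0.28 without PBMCsec 1, 0.11 without PBMCsec 3, 0.84 without vehicle 3) and from -0.16 (without PBMCsec 4) to 0.35 for Pglyrp1 (-0.089 without vehicle 2). Wfdc18 ran from -0.22 to 0.11 in the companion layer (0.084 without PBMCsec 4, 0.11 without vehicle 3, 0.070 without vehicle 4) and from -0.21 (without PBMCsec 1) to 0.38 in the cluster led by Pthlh, Wfdc18 and Kalrn (-0.029 without PBMCsec 4, -0.099 without vehicle 1). The neutrophil share difference ran from -0.61 to 3.10 percentage points.

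The other sign changes among these results were of Pglyrp1 over all kept cells, with 0.85 in libraries 3 and 4 alone, 0.29 under the wider filter, 0.30 there without cells with milk protein RNA and 0.22 over all barcodes; Wfdc18 over all kept cells, 1.03 in libraries 1 and 2 alone; Wfdc18 in epithelium, 0.10 with DESeq2 and 1.32 in libraries 1 and 2 alone; Lcn2 in epithelium, -0.42 in libraries 3 and 4 alone; Defb1 in the upper follicle, -0.087 under the wider filter and -0.032 at resolution 2; Lcn2 in endothelial cells, 0.34 under the wider filter; Lcn2 in the bulge, -1.07 in libraries 3 and 4 alone; and Pglyrp1 in NK cells, -0.25 in libraries 3 and 4 alone.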

Other observations

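Mast cells and basophils, a class of 28 kept cells and so too small for the comparison of classes, had Slpi at 102 CPM and Pglyrp1 at 178 CPM, the latter with a UMI in 7 of them.

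A cell of vehicle 4 under the wider filter, in the bulge and outer root sheath, held 1247 Slpi UMIs beside 15025 UMIs of Igkc, an immunoglobulin light chain gene of plasma cells. The Slpi level of that class in vehicle 4 was 611 CPM with and 5.91 CPM without it.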
